A study of Mus musculus with 6 samples.

Results

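The genes described here encode the proteins of the mitochondrial ribosome. They were taken as all protein-coding genes whose symbol is Mrpl or Mrps followed by a number, with pseudogenes left out, which gave 78 of the 56923 gene identifiers in the count tables, 49 named Mrpl and 29 named Mrps. Their messenger RNA was measured by poly-A RNA sequencing of 6 snap-frozen whole kidneys from male mice, 3 in each of 2 groups. The kidneys labelled control came from Pkd1flox/flox.Tet-O-Cre mice, which carry 2 floxed Pkd1 alleles and a Cre recombinase gene that needs a doxycycline-dependent activator. The kidneys labelled Pkd1 KO came from Pkd1flox/flox.Pax8rtTA.Tet-O-Cre mice, which also carry that activator under the Pax8 promoter, so that Cre is made in kidney tubule cells. Both groups drank doxycycline hydrochloride at 2 mg/ml in 5% sucrose for 14 days, from postnatal day 28 to 42, and the kidneys were taken at 10 weeks of age. The design asks what loss of Pkd1 from the tubules, a model of polycystic kidney disease, does to the kidney transcriptome. Loss was directed to tubule cells, while the RNA came from the whole organ.

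The mitochondrial ribosome, or mitoribosome, translates the few proteins that mitochondrial DNA encodes, all of them parts of the respiratory chain and ATP synthase. Its ribosomal RNAs come from mitochondrial DNA, while every one of its proteins is made from a nuclear gene in the cytosol and imported. Some of these proteins have bacterial homologues and others are found only in mitochondrial ribosomes. In the kidney, the proximal tubule and the thick ascending limb are rich in mitochondria, which supply the ATP for sodium transport.

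Libraries held 45020173 to 62983791 reads assigned to genes. Pkd1, the targeted gene, was read at 30.0, 46.4 and 23.6 CPM in controls 1 to 3 and 8.77, 9 and 10.0 CPM in Pkd1 KO 1 to 3, where CPM are read counts scaled to a common library size after TMM normalization. Every Pkd1 KO value lay below every control value, and the log2 fold change was -1.85 ± 0.24 (± SE; edgeR's quasi-likelihood test, Benjamini-Hochberg adjusted p = 0.00234; -0.49 with the offsets described below, adjusted p = 0.0135). The kidney genes Slc34a1, Umod, Aqp2 and Nphs1 were present in all 6 libraries. The file names place all controls in 1 sequencing project and all Pkd1 KO libraries in another, and genotype therefore cannot be told apart from project. The labels name separate samples but give no more about the animals, so p-values measure the spread between these samples. The controls differed more among themselves than the Pkd1 KO libraries did (chi-square per gene 68.3 to 230.5 against 23.5 to 29.4), and control 2 stood apart from the other controls.

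Of the 77 Mrpl and Mrps genes with enough counts to test, 41 rose in the Pkd1 KO kidneys, 3 fell and 33 did not pass the test, which was edgeR's quasi-likelihood test at an adjusted p below 0.05 over 18273 genes. Among all genes tested the same test called 46.9%, with 22.7% higher and 24.2% lower. The members' median log2 fold change was 0.58 and their range -0.52 to 1.47, against a median of 0.03 over all genes, and 70 of 77 values were above 0. Most of the increases were modest: 11 members rose at least 2-fold, a size reached by 11.6% of all genes. In 52 members all 3 Pkd1 KO values lay above all 3 control values (31.2% of all genes), in 3 they lay below (30.0% of all genes), and in 22 the groups overlapped. The remaining member, Mrpl53, was not tested, since its 6 libraries held 1 read in all, in control 3.

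The fold changes in these libraries follow gene structure, and this touches the members directly. Over all tested genes the median was 0.65 (log2 fold change) in the eighth with the shortest exons and -0.51 in the eighth with the longest, and it went from 0.56 at the lowest GC content to -0.60 at the highest. The members are rather short genes, with exon lengths of 607 to 8631 bases and a median of 2533, and 54 of 77 lay below the all-gene median of 3787. A second fit with offsets that remove each library's trend with GC content and exon length called 30 members higher, 4 lower and 43 neither, at a median log2 fold change of 0.21, beside 16.8% of all genes higher and 18.1% lower at a median of -0.01. In both fits together 26 members were called higher (12.2% of all genes) and 2 lower (12.6% of all genes), and 0 were called in opposite directions. Mrps7, Mrpl19, Mrps18a and Mrps34 were called higher only with the offsets, and Mrps14 and Mrpl9 were called lower only with them. An alternative took GC content and length from each gene's median transcript. With offsets from the median transcript length Mrps7, Mrpl19 and Mrps14 kept these calls. Mrps18a, Mrps34 and Mrpl9 did not (0.016, 0.13 and -0.12). Whether the trend with structure comes from RNA quality, library preparation or the kidneys was not tested.

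**Figure D1:**
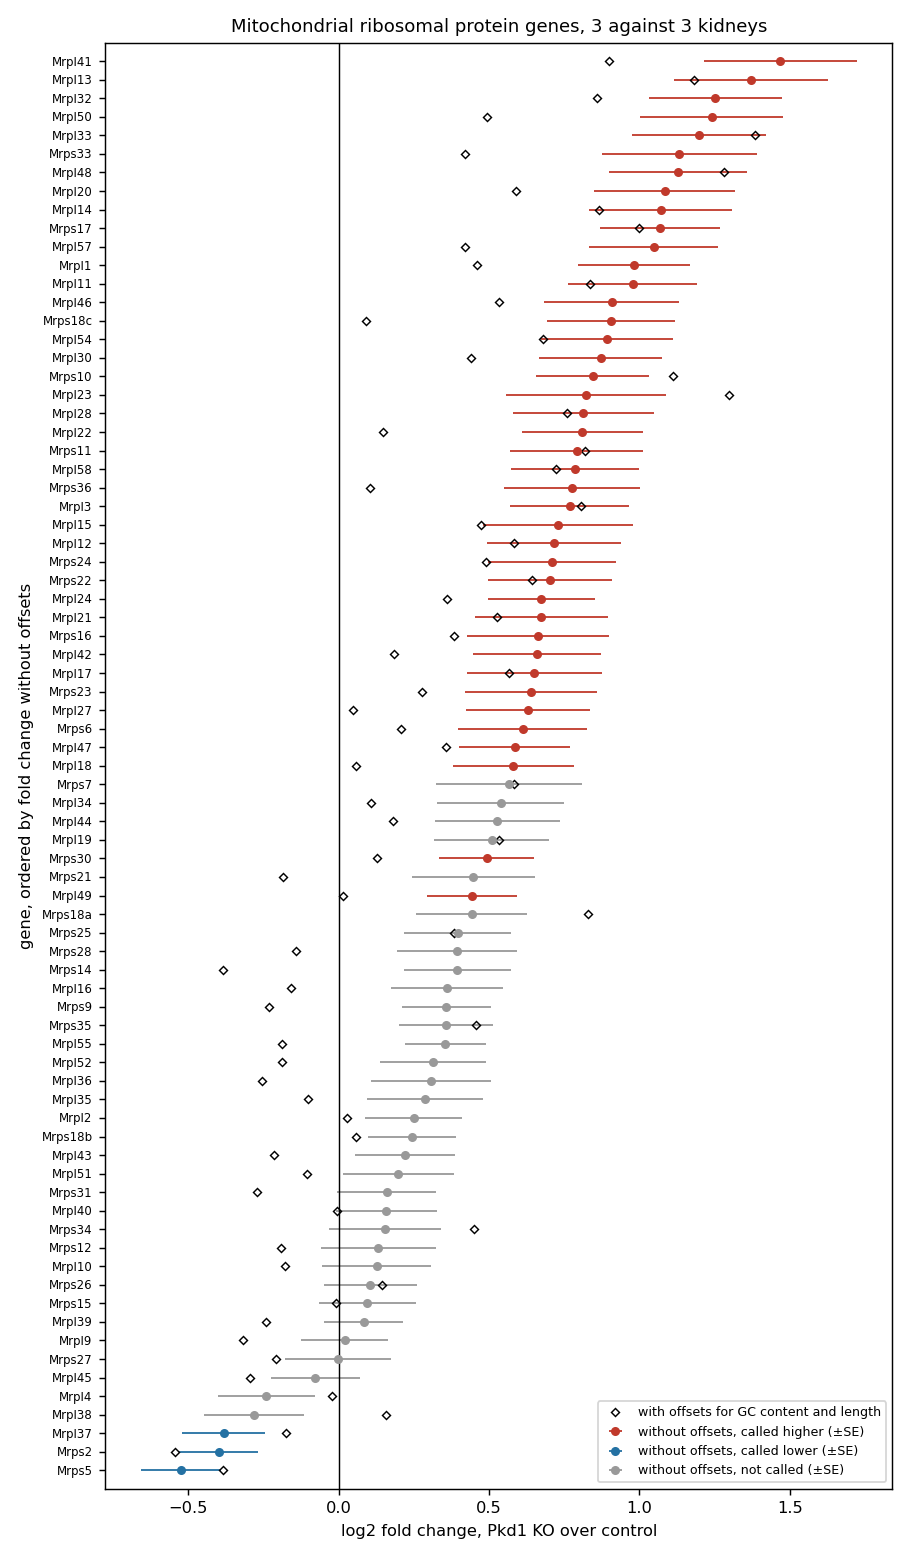
Log2 fold change, Pkd1 KO over control, of the 77 tested Mrpl and Mrps genes, ordered from highest to lowest. Circles are the fit without offsets, with bars of 1 SE on each side and colour for the call. Open diamonds are the second fit, with its offsets. The 41 red circles lie right of 0 and the 3 blue ones left of it, and most diamonds lie left of their circle.

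By the length of all annotated exons together, the longer members did not follow the trend of other long genes. In the eighth of exon length from 6118 to 8471 bases, all genes had a median log2 fold change of -0.29 and the 10 members there 0.81. In the shortest eighth, up to 1306 bases, all genes had 0.65 and the 15 members 0.54, so there the members lay no higher than other genes of their length. Split at their own median length, the 39 shorter members counted 21 higher and 0 lower at a median of 0.58, which the offsets moved to 0.11. The 38 longer members counted 20 higher and 3 lower at 0.55, which the offsets moved to 0.40. Their median GC content was also lower, at 45.4% against 52.6% in the shorter members. This split therefore does not separate length from GC content. Mrpl33, with 7326 bases of exon, and Mrps10, with 8079, were among those whose fold change was larger with the offsets (1.20 against 1.39 and 0.84 against 1.11). With offsets from the median transcript length both were smaller instead. Mrpl33 stood at 0.32, which did not pass, and Mrps10 at 0.39, which did (edgeR adjusted p = 0.0722 and 0.0272).

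**Figure D2:**
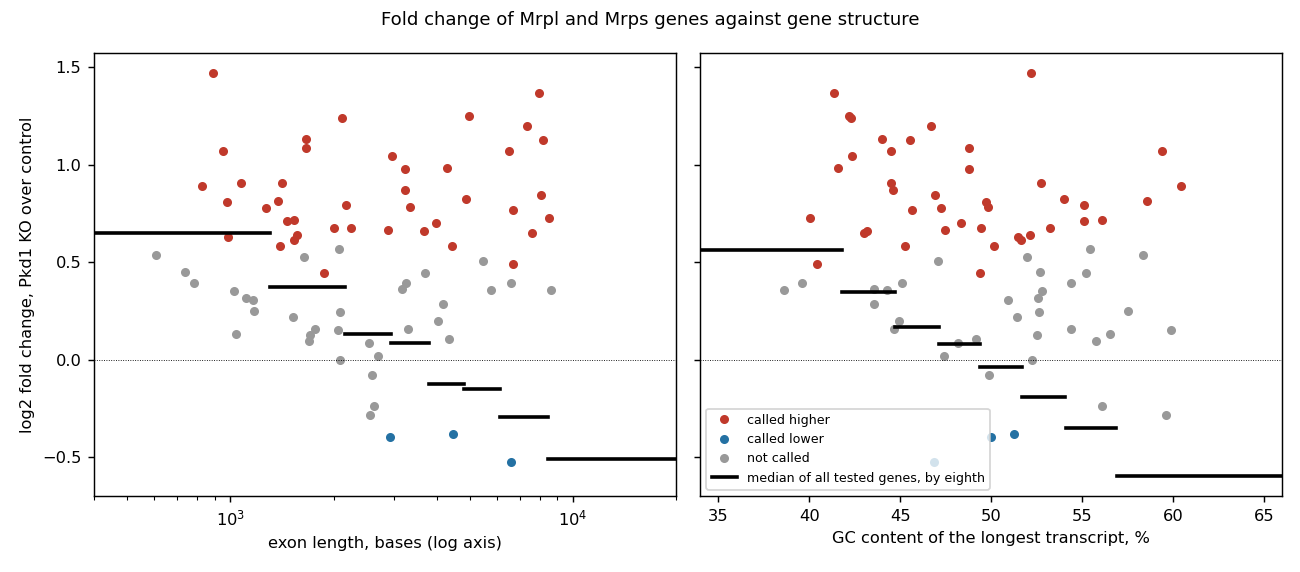
Log2 fold change of each tested Mrpl and Mrps gene (points, coloured by call) against exon length in bases on a log axis (left) and against the GC content of its longest transcript in percent (right). Black bars give the median of all tested genes in each eighth. The bars fall from 0.65 to -0.51 along length and from 0.56 to -0.60 along GC content, while every red point lies above 0.4. No member was longer than 8631 bases, and the longest eighth held 2 members.

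The promoters of these genes share letters that the choice by symbol did not use. RefSeq (GRCm38.p6) windows of 300 bases, 250 before and 50 after the start, matched 69 of the 78 genes with 75 promoters. The motif GCGCANGCG of NRF1, a nuclear factor of mitochondrial biogenesis, was found on either strand in 21.3% of the members' promoters and in 6.25% of all 32851 promoters. CCGGAAG, bound by ETS factors such as GABPA, was found in 34.7% against 8.86%. AAGATGGC, the YY1 motif, was found in 16% against 2.75%. The GC box GGGCGG was common everywhere, at 52.0% against 35.7%, and the E-box CACGTG stood at 9.33% against 7.15%. At least 1 of the first 3 motifs was present in 44 of 69 members (63.8%) and in 17.8% of 27025 genes. A match is a description of letters and not a binding site. The comparison set is every RefSeq promoter, not chosen by expression in these kidneys or by GC content.

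Members with a motif were found both among those that rose and among the rest. The NRF1 letters were in 7 of 38 members that rose and in 9 of 30 other tested members, the ETS letters in 15 of 38 and 10 of 30, and the YY1 letters in 5 of 38 and 7 of 30. Of the 3 that fell, 0 held the NRF1 or ETS letters and 1 held the YY1 letters. The stretches below are the 120 bases before the RefSeq start on the gene's own strand, GRCm38.p6, chosen after the values were seen, with NRF1, ETS and YY1 letters in capitals. Mrpl12 (chr11:120484517-120484636, plus strand) is shown as the most abundant member per length and Mrpl32 (chr13:14613038-14613157, minus strand) as a strongly raised member with several NRF1 matches. Mrpl22 (chr11:58171544-58171663, plus strand) holds ETS and NRF1 letters together, Mrpl3 (chr9:105053148-105053267, plus strand) holds ETS letters next to the start, and Mrps11 (chr7:78783011-78783130, plus strand) holds YY1 letters on the minus strand. Mrpl41 (chr2:24975099-24975218, minus strand), the member with the largest rise, and Mrps5 (chr2:127587306-127587425, plus strand), the one with the largest fall, hold none of the 3 in this stretch.
Mrpl12: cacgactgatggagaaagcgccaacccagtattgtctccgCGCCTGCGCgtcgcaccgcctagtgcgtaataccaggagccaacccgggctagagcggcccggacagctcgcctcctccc
Mrpl32: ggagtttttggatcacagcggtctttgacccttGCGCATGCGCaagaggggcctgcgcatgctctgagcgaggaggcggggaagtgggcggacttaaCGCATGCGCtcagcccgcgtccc
Mrpl22: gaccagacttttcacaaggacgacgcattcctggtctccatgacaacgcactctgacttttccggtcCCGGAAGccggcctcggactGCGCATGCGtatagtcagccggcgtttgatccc
Mrpl3: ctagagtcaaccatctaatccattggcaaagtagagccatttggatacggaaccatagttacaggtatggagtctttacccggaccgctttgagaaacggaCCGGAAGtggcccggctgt
Mrps11: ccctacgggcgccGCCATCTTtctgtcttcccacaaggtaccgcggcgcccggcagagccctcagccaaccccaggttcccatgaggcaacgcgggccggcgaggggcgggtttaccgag
Mrpl41: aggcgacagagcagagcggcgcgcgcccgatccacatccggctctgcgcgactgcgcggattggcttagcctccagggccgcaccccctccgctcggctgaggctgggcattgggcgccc
Mrps5: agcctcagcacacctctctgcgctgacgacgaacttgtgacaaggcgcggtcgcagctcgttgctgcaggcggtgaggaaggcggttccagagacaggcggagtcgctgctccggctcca

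Many members also start back to back with another gene. In RefSeq 26 of the 69 matched members (37.7%) had the start of another gene on the opposite strand within 1000 bases upstream, against 12.3% of all 27025 genes. Those 27025 genes too were not chosen by expression. Mrps11 and Mrpl46 are each other's partner, and both rose (0.79 and 0.91). Mrps11 lost its call without Pkd1 KO 1 or Pkd1 KO 2 (edgeR adjusted p up to 0.0655). The starts of this pair lie so close that most of the Mrps11 stretch above, its YY1 letters included, is inside Mrpl46. Mrpl43 pairs with Twnk, which encodes the helicase of mitochondrial DNA, and Mrps12 with Sars2, a mitochondrial seryl-tRNA synthetase; these members had log2 fold changes of 0.22 and 0.13, which did not pass the test. Such a partner was present for 14 of 38 members that rose (36.8%). Counting ignored strand, so reads where partners overlap count for neither gene.

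Of the 41 members that rose, 30 encode proteins of the large subunit. Of 50 tested proteins placed in this subunit, these 30 rose and 1 fell, at a median log2 fold change of 0.64. Those with a bacterial homologue counted 20 higher and 0 lower of 30 at 0.67, which became 15 and 1 at 0.45 with the offsets. Those listed as specific to mitochondria counted 10 higher and 1 lower of 20 at 0.47, which became 8 and 0 at 0.17. This list also held Mrps18a, a paralogue of bacterial S18 that was called higher only with the offsets. Among all genes 22.7% were higher and 24.2% lower, and with the offsets 16.8% and 18.1%.

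Mrpl41, a protein specific to mitochondria that has also been described as a Bcl-2 partner, had the largest change of all members. It was read at 46.9, 32.9 and 71.4 CPM in controls 1 to 3 and 134, 147 and 137 CPM in Pkd1 KO 1 to 3. Every Pkd1 KO library lay well above the highest control, control 3, and the fold change was 2.77 (log2 1.47 ± 0.25, edgeR adjusted p = 0.00330; 0.90 with the offsets, adjusted p = 0.00390). Mrpl13, the homologue of bacterial L13, followed at 63.6, 41.6 and 91.8 CPM in controls 1 to 3 and 165, 183 and 161 CPM in Pkd1 KO 1 to 3. The groups did not overlap, and the log2 fold change was 1.37 ± 0.26 (edgeR adjusted p = 0.00414; 1.18 with the offsets). Mrpl32, which the m-AAA protease trims before it joins the subunit, was read at 33.8, 26.6 and 49.6 CPM in controls 1 to 3 and 83.5, 96.3 and 81.8 CPM in Pkd1 KO 1 to 3. Control 3 was again the highest control, and the log2 fold change was 1.25 ± 0.22 (edgeR adjusted p = 0.00349; 0.86 with the offsets).

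Mrpl50, specific to mitochondria and one of the most abundant members, was read at 136, 97.1 and 194 CPM in controls 1 to 3 and 328, 367 and 312 CPM in Pkd1 KO 1 to 3. The groups did not overlap, with a log2 fold change of 1.24 ± 0.24 (edgeR adjusted p = 0.00442) that the offsets lowered to 0.49 (adjusted p = 0.0317). Mrpl33, the homologue of bacterial L33, was read at 10.3, 10.2 and 17.3 CPM in controls 1 to 3 and 27.7, 32.4 and 26.6 CPM in Pkd1 KO 1 to 3. It rose by 1.20 ± 0.22 on the log2 scale (edgeR adjusted p = 0.00401), with groups that did not overlap. The offsets raised this value, while those from the median transcript length left 0.32, which did not pass (edgeR adjusted p = 0.0722). Mrpl20, which in bacteria helps the large subunit to assemble, was read at 74.8, 51.9 and 103 CPM in controls 1 to 3 and 163, 177 and 147 CPM in Pkd1 KO 1 to 3. Its lowest Pkd1 KO value was above its highest control value, and the log2 fold change was 1.08 ± 0.23 (edgeR adjusted p = 0.00652). The offsets gave 0.59, and those from the median transcript length 0.28, which did not pass (edgeR adjusted p = 0.113). Mrpl48, specific to mitochondria, was read at 40.2, 26.8 and 53.1 CPM in controls 1 to 3 and 82, 95.1 and 85.3 CPM in Pkd1 KO 1 to 3, again without overlap, a log2 fold change of 1.13 ± 0.23 (edgeR adjusted p = 0.00532). Its value depends on strand: 65.8% of its reads belonged to it alone when strand was ignored, and the sum of both strand columns gave 0.54 (edgeR adjusted p = 0.0253).

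Of the 3 stalk proteins, which recruit the translation factors, 2 rose. Mrpl12, the multi-copy stalk protein that also binds the mitochondrial RNA polymerase, was read at 234, 178 and 337 CPM in controls 1 to 3 and 425, 409 and 395 CPM in Pkd1 KO 1 to 3. The groups did not overlap, and it rose by 0.72 ± 0.22 on the log2 scale (edgeR adjusted p = 0.0273; 0.58 with the offsets). Mrpl11, at the stalk base, rose by 0.98 ± 0.21, from 47.7 ± 15.1 CPM in controls against 93.8 ± 2.38 CPM in Pkd1 KO kidneys (mean ± SD, n = 3 each) (edgeR adjusted p = 0.00701; 0.84 with the offsets). Mrpl10, which anchors Mrpl12, was read at 78.2, 60.9 and 94.3 CPM in controls 1 to 3 and 96.1, 79.7 and 78.9 CPM in Pkd1 KO 1 to 3. The groups overlapped and the log2 difference of 0.13 ± 0.18 did not pass the test (edgeR adjusted p = 0.586). It turned to -0.18 with the offsets and to -0.05 without control 2, neither of which passed. Whether Mrpl10 differed from its 2 partners was not tested.

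At a median log2 fold change of 0.65 over all 7 proteins around the exit of the nascent chain, 5 rose. Mrpl45, which holds the ribosome at the inner membrane, was not among them, with a log2 difference of -0.08 ± 0.15 (edgeR adjusted p = 0.683), nor was Mrpl44, with 0.53 ± 0.21 (0.0634). Mrpl47 rose by 0.59 ± 0.18, from 20.1 ± 4.76 CPM in controls against 30.1 ± 0.850 CPM in Pkd1 KO kidneys (mean ± SD, n = 3 each) (edgeR adjusted p = 0.0282), but only 19.4% of its reads belonged to it alone when strand was ignored. With offsets 2 of these 7, Mrpl23 and Mrpl24, passed. Mrpl58, a peptidyl-tRNA hydrolase that became part of the subunit, rose by 0.78 ± 0.21 (edgeR adjusted p = 0.0160; 0.72 with the offsets). It lost its call without control 1, Pkd1 KO 1 or Pkd1 KO 2 (edgeR adjusted p up to 0.0642).

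Mrpl37, specific to mitochondria, was the large subunit gene that fell. It was read at 82.2, 68.9 and 84.3 CPM in controls 1 to 3 and 65.2, 57.6 and 57.8 CPM in Pkd1 KO 1 to 3. All Pkd1 KO values were lower than all control values, and the log2 fold change of -0.38 ± 0.14 was close to the threshold (edgeR adjusted p = 0.0484). The offsets brought it to -0.18, which did not pass (adjusted p = 0.294). Those from the median transcript length gave -0.33, which passed (edgeR adjusted p = 0.0337). The smallest increases that passed were in Mrpl49, specific to mitochondria (0.44 ± 0.15, edgeR adjusted p = 0.0360), Mrps30, which sits in the large subunit despite its name (0.49 ± 0.16, 0.0303), and Mrpl18, the homologue of bacterial L18 (0.58 ± 0.20, 0.0410). With the offsets these 3 stood at 0.01, 0.13 and 0.06 and did not pass. The sum of both strand columns also left Mrps30 at 0.17 (edgeR adjusted p = 0.431) and Mrpl18 at 0.50 (0.0671).

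Of 26 tested small subunit proteins, 10 rose and 2 fell at a median log2 fold change of 0.40, and the difference from the large subunit was not tested. Those with a bacterial homologue counted 7 higher and 2 lower of 16 at 0.51, and with the offsets 5 and 3 at 0.04. Those listed as specific to mitochondria, with the S18 paralogue Mrps18b among them, counted 3 higher (30.0%) and 0 lower of 10 at 0.30. With the offsets they counted 2 and 0 at 0.33. Among all genes 22.7% were higher and 24.2% lower, and with the offsets 16.8% and 18.1%, so several of these counts lie near the shares of all genes.

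Mrps33, specific to mitochondria, rose most among the small subunit genes and was read at 11.5, 7 and 15.7 CPM in controls 1 to 3 and 26, 25.1 and 23.8 CPM in Pkd1 KO 1 to 3. The groups did not overlap, with a log2 fold change of 1.13 ± 0.26 (edgeR adjusted p = 0.00819), but the offsets left 0.42, which did not pass (adjusted p = 0.0873). Mrps6, the homologue of bacterial S6, was read at 40.5, 28.1 and 51.4 CPM in controls 1 to 3 and 53.9, 67.2 and 62.2 CPM in Pkd1 KO 1 to 3, a smaller rise of 0.61 ± 0.21 (edgeR adjusted p = 0.0428) that did not pass with the offsets (0.21). Mrps5, the homologue of the bacterial S5 protein near the entry of the messenger, fell most of all members and was read at 48.1, 49.1 and 47.8 CPM in controls 1 to 3 and 37.3, 30.3 and 33.2 CPM in Pkd1 KO 1 to 3. The control values were nearly equal and every Pkd1 KO value lay below them, a log2 fold change of -0.52 ± 0.13 (edgeR adjusted p = 0.0123; -0.38 with the offsets, adjusted p = 0.0289). Mrps2, the homologue of bacterial S2, was read at 52.4, 44.1 and 49.8 CPM in controls 1 to 3 and 38.9, 36.9 and 35.2 CPM in Pkd1 KO 1 to 3. It fell without overlap by 0.40 on the log2 scale (SE 0.13, edgeR adjusted p = 0.0340) and the offsets gave -0.54 (adjusted p = 0.00581). With offsets from the median transcript length Mrps2 stood at -0.50 and passed (edgeR adjusted p = 0.00720). Mrps5 stood at -0.30 with them and did not pass (edgeR adjusted p = 0.0835).

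Mammals have 3 paralogues of the bacterial protein S18, of which 1 rose without the offsets. Mrps18c, the one with the bacterial place in the small subunit, was read at 6.45, 6.57 and 10.3 CPM in controls 1 to 3 and 14.4, 16.3 and 13 CPM in Pkd1 KO 1 to 3 and rose by 0.90 ± 0.21 (edgeR adjusted p = 0.00928), though not with the offsets (0.09). Mrps18a, which sits in the large subunit, was read at 75.1, 55 and 89.8 CPM in controls 1 to 3 and 106, 100.2 and 92.7 CPM in Pkd1 KO 1 to 3. Its groups did not overlap, but its log2 difference of 0.44 ± 0.19 passed only with the offsets (edgeR adjusted p = 0.0774 without and 0.0123 with them, at 0.83). With offsets from the median transcript length Mrps18a stood at 0.016 and did not pass (edgeR adjusted p = 0.924). Mrps18b was read at 13, 11.5 and 14.2 CPM in controls 1 to 3 and 16.1, 14.6 and 15.1 CPM in Pkd1 KO 1 to 3, a narrow gap between the groups that did not pass (0.24 ± 0.15, edgeR adjusted p = 0.193). Offsets from the median transcript length turned Mrps18b to -0.27. Differences between the 3 were not tested. Mrps36, which despite its symbol belongs to the 2-oxoglutarate dehydrogenase complex, rose by 0.78 ± 0.23 (edgeR adjusted p = 0.0212; 0.10 with the offsets, not passed). It lost its call without control 1, Pkd1 KO 1 or Pkd1 KO 2 (edgeR adjusted p up to 0.0859).

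Levels of the members spanned a wide range. Mean values over the 6 libraries ran from 8.13 to 329.7 CPM, with a median of 56.0. Per kilobase of exon the most abundant were Mrpl12, with 163 CPM per kilobase in controls and 268 in Pkd1 KO kidneys, Mrpl34 (133 and 194), Mrps21 (117 and 159) and Mrpl50 (67.3 and 159). Mrpl34 and Mrps21, homologues of bacterial L34 and S21, did not pass the test, with log2 differences of 0.54 ± 0.21 (edgeR adjusted p = 0.0632) and 0.45 ± 0.21 (0.101). With the offsets Mrpl34 stood at 0.11 and Mrps21 turned to -0.19, neither of which passed, and offsets from the median transcript length gave Mrps21 -0.36, which passed as lower (edgeR adjusted p = 0.0307). Mrps21 was read at 85.5, 62.2 and 111 CPM in controls 1 to 3 and 121, 125 and 106 CPM in Pkd1 KO 1 to 3, so its lowest Pkd1 KO value was under control 3.

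The members moved together from library to library, among controls as well as between groups. Their summed level was 4090 CPM in control 1, 3106 in control 2 and 5218 in control 3, and 6425, 6357 and 5975 CPM in the Pkd1 KO libraries. The Pkd1 KO mean was 1.51 times the control mean, the groups did not overlap, and the controls were spread widely while the Pkd1 KO libraries lay close together. Control 2 was the lowest control in 75 of 77 members and control 3 the highest in 75 of 77, where across 18130 genes read in every library these shares were 40.2% and 39.6%. The control values spanned more than the Pkd1 KO values in 75 of 77 members (76.4% of all genes), at a median log2 range of 0.76 against 0.15.

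**Figure D3:**
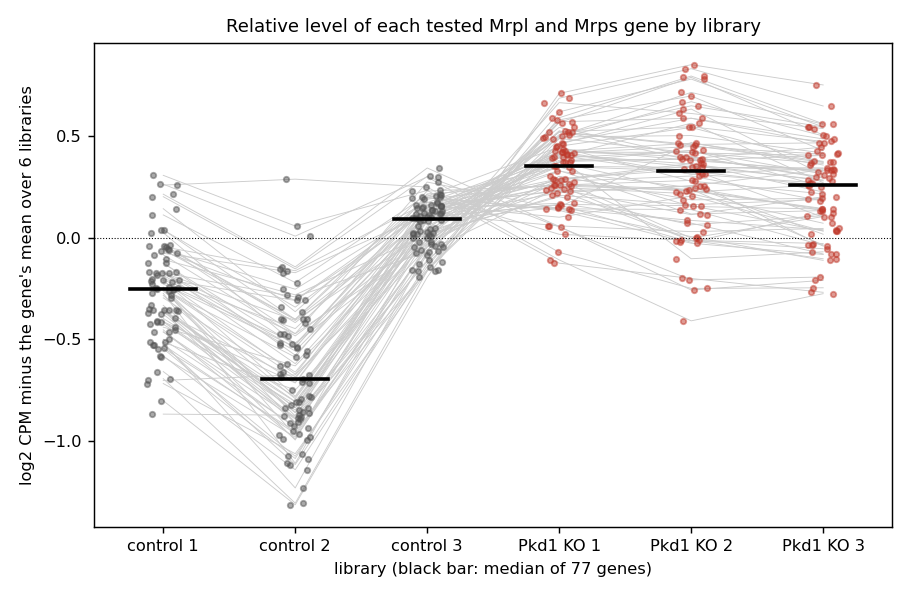
Level of each of the 77 tested Mrpl and Mrps genes in each library, as log2 CPM minus that gene's mean over the 6 libraries. Points are genes, grey lines join 1 gene across libraries and black bars give the median. The medians are -0.25, -0.69 and 0.09 in controls 1 to 3 and 0.35, 0.33 and 0.26 in Pkd1 KO 1 to 3, so control 3 lies nearest to the Pkd1 KO libraries and control 2 farthest.

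The number of calls depended on which library was present, and a fit without 1 library also has fewer samples. Without control 2, 42 members were called in either direction, 37 of them higher, at a median log2 fold change of 0.38. Of all genes, 8517 were then called in either direction. Without control 3 these values were 59, 56, 0.78 and 10318, and with all libraries 44, 41, 0.58 and 8579. The share of all genes called higher in these 2 smaller fits is not given here. Leaving out control 1, Pkd1 KO 1, Pkd1 KO 2 or Pkd1 KO 3 left 19, 20, 20 and 24 members called higher (13.9%, 15.7%, 12.5% and 15.0% of all genes) at medians of 0.53 to 0.60. With the offsets and without control 2, 24 members were higher and 7 lower at a median of 0.08 (16.1% and 17.4% of all genes). In all 6 of these smaller fits 18 members were called higher (11.7% of all genes) and 0 lower (13.9% of all genes). The 18 were Mrpl41, Mrpl13, Mrpl32, Mrpl50, Mrpl33, Mrps33, Mrpl48, Mrpl20, Mrpl14, Mrps17, Mrpl57, Mrpl1, Mrpl11, Mrpl46, Mrps18c, Mrpl30, Mrps10 and Mrpl22. Of these, 15 also passed with the offsets (8.64% of all genes), the exceptions being Mrps33, Mrps18c and Mrpl22. Among the 15, Mrpl33, Mrpl20 and Mrpl30 did not pass with offsets from the median transcript length (edgeR adjusted p = 0.0722, 0.113 and 0.180). Mrps5 lost its call without Pkd1 KO 2 or Pkd1 KO 3, at adjusted p values up to 0.0715, with log2 fold changes of -0.61 to -0.45. Mrpl12, Mrpl47, Mrpl37 and Mrps2 lost theirs without control 1 or any 1 Pkd1 KO library (edgeR adjusted p up to 0.102, 0.0960, 0.174 and 0.146), and Mrps6, Mrpl18, Mrps30 and Mrpl49 also without control 2 (up to 0.146, 0.139, 0.107 and 0.123).

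Other genes of mitochondrial gene expression did not share 1 direction. Among all genes 22.7% were called higher and 24.2% lower, and with the offsets 16.8% and 18.1%. The mitoribosome proteins with other symbols counted 2 higher and 0 lower of 5, at a median log2 fold change of 0.31. Chchd1, a small subunit protein, was read at 40.0, 26 and 68.2 CPM in controls 1 to 3 and 119.9, 144 and 119 CPM in Pkd1 KO 1 to 3, without overlap, and its estimate lay above but within 1 SE of that of Mrpl41 (1.51 ± 0.31, edgeR adjusted p = 0.00527; 0.82 with the offsets). Ptcd3, a small subunit protein that meets the messenger, rose by 0.80 ± 0.19 (edgeR adjusted p = 0.00938; 0.57 with the offsets).

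With the offsets, genes that assemble the mitoribosome and modify its RNA counted 6 higher and 4 lower of 26 (16.8% and 18.1% of all genes). Without the offsets 8 were higher and 5 lower (30.8% and 19.2%), at a median of 0.18. These shares lie near those of all genes (22.7% and 24.2%). Among the higher ones were Malsu1, which keeps the subunits apart during assembly (1.22 ± 0.24, edgeR adjusted p = 0.00445), the pseudouridine synthase Trub2 (1.01 ± 0.16, 0.00274) and the GTPase Gtpbp10 (0.90 ± 0.15, 0.00288), all 3 of which also passed with the offsets. The GTPase Noa1 fell (-0.82 ± 0.14, edgeR adjusted p = 0.00311; -0.69 with the offsets). The helicase Dhx30 fell without the offsets (-1.12 ± 0.16, edgeR adjusted p = 0.00259), and with them stood at -0.03 (0.901). The methyltransferase Mrm3 passed narrowly (-0.63 ± 0.23, edgeR adjusted p = 0.0464), with groups that overlapped because control 2, at 8.53 CPM, lay among the Pkd1 KO values, and it lost its call without any 1 library other than control 2 (adjusted p up to 0.136).

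The translation factors counted 4 higher and 6 lower of 15 (26.7% and 40.0%), at a median of 0.08, beside 22.7% and 24.2% of all genes. With the offsets 3 were higher and 5 lower, beside 16.8% and 18.1% of all genes. The elongation factor Tufm, which brings aminoacyl-tRNA to the ribosome, was read at 119, 99.5 and 87.3 CPM in controls 1 to 3 and 50.7, 44.6 and 42.6 CPM in Pkd1 KO 1 to 3. Each Pkd1 KO value was below each control value, at a log2 fold change of -1.15 ± 0.16 (edgeR adjusted p = 0.00238; -1.10 with the offsets). Gfm1, the translocase, fell likewise (-0.97 ± 0.14, edgeR adjusted p = 0.00259; -1.13 with the offsets), as did Lrpprc, which stabilizes mitochondrial messengers (-0.79 ± 0.20, 0.0113; -0.42). In the opposite direction, the release factor Mtrf1 rose by 0.98 ± 0.20 (edgeR adjusted p = 0.00540), the recycling factor Mrrf by 0.65 ± 0.20 (0.0273) and the GTPase Guf1 by 0.49 ± 0.13 (0.0135), and with the offsets Mtrf1 and Mrrf passed while Guf1 did not (0.09, and -0.047 with offsets from the median transcript length). Mrrf lost its call without control 1 or any 1 Pkd1 KO library, Guf1 without control 1, Pkd1 KO 2 or Pkd1 KO 3, and Lrpprc without Pkd1 KO 2 (edgeR adjusted p up to 0.0924, 0.0694 and 0.0509). Tufm and Gfm1 were thus called in the direction opposite to most called Mrpl and Mrps genes in the same libraries.

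The transcription list counted 2 higher and 1 lower of 4, and with the offsets 0 higher and 2 lower. Polrmt, the mitochondrial RNA polymerase, was read at 45.5, 55.1 and 37.8 CPM in controls 1 to 3 and 20.3, 15.6 and 18.8 CPM in Pkd1 KO 1 to 3. It fell by 1.34 on the log2 scale (SE 0.18, edgeR adjusted p = 0.00234), and by 0.38 with the offsets (adjusted p = 0.0285). The elongation factor Tefm rose (1.10 ± 0.27, edgeR adjusted p = 0.0107), as did Tfam, which packages and transcribes mitochondrial DNA (0.46 ± 0.15, 0.0296), and neither passed with the offsets. With offsets from the median transcript length Tfam turned to -0.30 (edgeR adjusted p = 0.0567). Tfam also lost its call without control 1 or any 1 Pkd1 KO library (edgeR adjusted p up to 0.123).

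The products of mitochondrial DNA gave no single direction either. The ribosomal RNA mt-Rnr1 was read at 1739, 1093 and 2004 CPM in controls 1 to 3 and 1950.5, 2773 and 2283 CPM in Pkd1 KO 1 to 3. The groups overlapped, and the log2 difference of 0.54 ± 0.25 did not pass (edgeR adjusted p = 0.104). The larger ribosomal RNA mt-Rnr2 had 0.63 ± 0.26 (edgeR adjusted p = 0.0737), and with the offsets the values turned to -0.47 and -0.46, which did not pass either. Ribosomal RNA is poorly represented after poly-A selection. Of 11 tested protein genes, 3 were higher and 2 lower (27.3% and 18.2%) at a median of 0.13, beside 22.7% and 24.2% of all genes. With the offsets 1 was higher and 7 lower at -0.87, beside 16.8% and 18.1% of all genes. The complex I subunits mt-Nd5 (-1.11 ± 0.22, edgeR adjusted p = 0.00475) and mt-Nd6 (-0.94 ± 0.22, 0.00923) fell in both fits, and they lie on opposite strands next to each other, so counting without strand could mix them. The genes called higher, mt-Co3 (2.05 ± 0.28), mt-Co2 (1.76 ± 0.31) and mt-Atp6 (0.78 ± 0.24), were read at 7.12 CPM or less in every library; reads that map to several places were not counted, so these are not the genes' levels. With the offsets mt-Co3 still passed (1.09, edgeR adjusted p = 0.0166), mt-Co2 did not (0.77, 0.105) and mt-Atp6 turned to -0.15 (0.699). Of the 3, mt-Atp6 also did not pass without control 1, control 2, Pkd1 KO 1 or Pkd1 KO 3 (edgeR adjusted p up to 0.103). The counted reads of all 13 protein genes summed to 53243 to 61853 CPM in controls and 54661 to 59959 CPM in Pkd1 KO kidneys, ranges that overlap. Only 11 of the 13 had enough counts to test, and mt-Co3, mt-Co2 and mt-Atp6 added little. This sum is therefore not the total level of mitochondrial messengers.

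**Figure D4:**
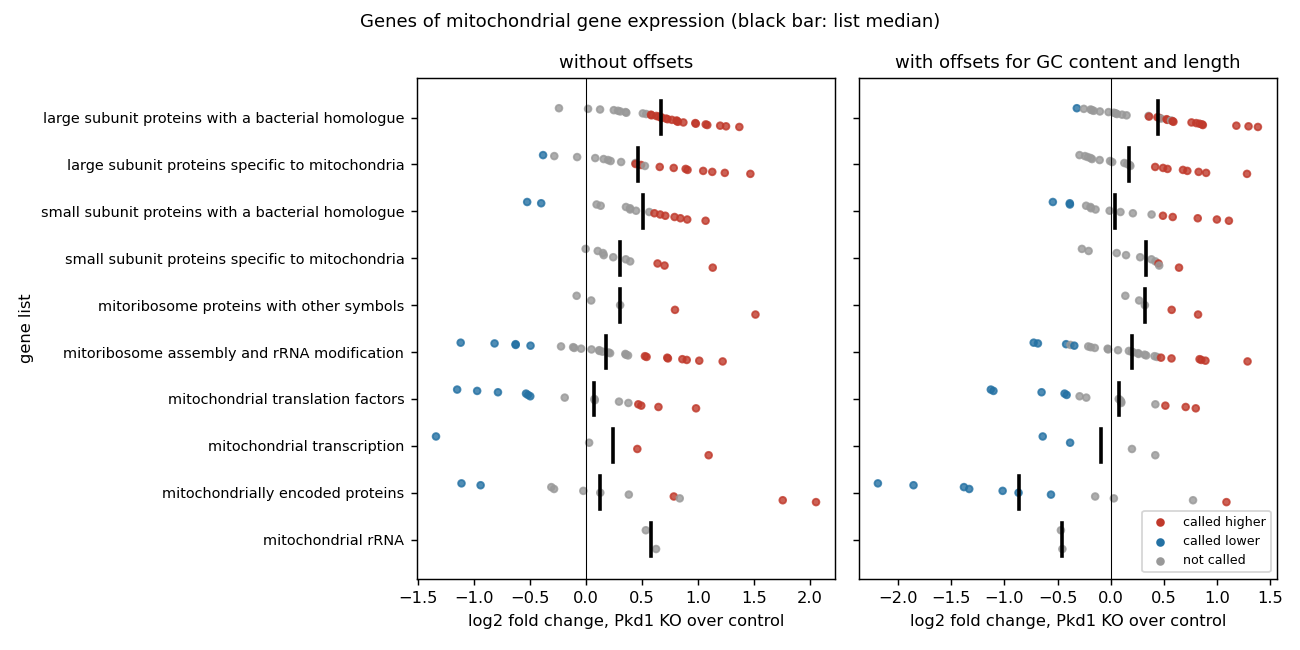
Log2 fold change, Pkd1 KO over control, of each tested gene in the subgroups of Mrpl and Mrps genes and in the lists of other genes of mitochondrial gene expression, without offsets (left) and with offsets for GC content and length (right). Points are genes coloured by call and black bars are list medians. The large subunit proteins with a bacterial homologue have medians of 0.67 and 0.45, the translation factors lie on both sides of 0, and the mitochondrially encoded proteins move from 0.13 to -0.87.

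For comparison, the genes of cytosolic ribosomal proteins counted 64 higher and 0 lower of 81 at a median log2 fold change of 0.97 (51, 5 and 0.66 with the offsets), and the nuclear genes of respiratory complex I 18 and 2 of 36 at 0.62 (11, 2 and 0.13). The cytosolic set showed the same order of controls, with summed levels of 13574, 10077 and 19092 CPM against 25770 to 31425 CPM in the Pkd1 KO libraries. Over all genes the shares were 22.7% higher and 24.2% lower, and 16.8% and 18.1% with the offsets. Differences of the mitoribosome genes from either set were not tested.

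Markers of cell types moved with the groups, and their part in the member changes was not tested. Summed levels of 12 proximal tubule markers were 11904 to 16820 CPM in controls and 7802 to 9082 CPM in Pkd1 KO kidneys, with 8 lower and 1 higher, and control 2, lowest in the members, was highest in these markers while control 3, highest in the members, was lowest. The 7 loop of Henle and distal tubule markers summed to 4118 to 5215 CPM against 1779 to 2177 CPM, with 5 lower. The 8 collecting duct markers summed to 638.2 to 756.7 CPM against 455.4 to 565.8 CPM. The 5 podocyte markers summed to 215.4 to 385.0 CPM against 164.3 to 190.0 CPM, and the 5 endothelial ones to 288.6 to 336.2 against 249.2 to 251.9 CPM. The 6 fibroblast and pericyte markers had overlapping sums, 212.2 to 257.9 against 232.0 to 323.4 CPM. The 8 macrophage markers summed to 116.3 to 153.5 CPM against 207.6 to 334.3 CPM, with 5 higher and 1 lower. The 8 T and B cell markers summed to 5.21 to 5.78 against 7.50 to 10.8 CPM, and the 7 markers of dividing cells to 44.3 to 49.4 against 91.7 to 130.1 CPM, with 6 higher and 1 lower. In whole kidneys, a change in the number of cells of a type and a change in RNA per cell cannot be told apart.

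Overlap between genes limits some of the members' values. Under the column that ignores strand, fewer than 80% of reads belonged to the member alone in 15 members, and fewer than 50% in 6. Those 15 counted 8 higher at a median log2 fold change of 0.49, and the other 62 counted 33 higher at 0.63.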

How the data were processed

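Per the labels' protocols, RNA was extracted from snap-frozen whole kidneys with RNeasy Mini columns and read by photometer, and poly-A RNA was purified, fragmented and copied with random primers. The submitters' processing notes name FastQC 0.11.8, cutadapt 4.0, STAR 2.6.1e and the build GRCm39. No gene annotation for the counting is named there. The deposited values are raw read counts per gene, 7 tables in all, 2 of them runs of control 1 that were summed. The column that ignores strand was used, since the strand columns held nearly equal reads (49.1% to 50.0% in the first). Lines naming no gene held 22.9% to 26.3% of reads and were left out. STAR counts reads that map to 1 place only.

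Counts were tested with edgeR 4.0.16 in R 4.3.3 (limma 3.58.1 installed): filterByExpr, TMM, quasi-likelihood test of Pkd1 KO against control, Benjamini-Hochberg over 18273 genes, threshold 0.05; the common biological coefficient of variation was 21.4%. SE is the absolute log2 fold change over the square root of F. The offset fit subtracts a loess surface (span 0.3) of GC content of the longest transcript and log2 exon length from each library, and covered 17785 genes (97.3%). Symbols and gene structure came from GENCODE M21, an older build joined by identifier (52073 symbols), and promoters from RefSeq GRCm38.p6. Alternatives were upper quartile and DESeq2 size factors, DESeq2 1.42.0, other filters, the larger run of control 1 and leaving out each library. The sum of both strand columns, offsets from the median transcript, and offsets without control 2 were added after the data were seen. The edgeR and offset fits were also run on simulated counts, with genes drawn independently and far fewer changed genes than were called here. Those counts held no shared movement of genes among controls, so they do not check the calls under that spread.

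Members and lists were chosen with earlier results of these data known. Named genes were Pkd1; among called members at a mean log2 CPM of at least 2 whose groups did not overlap, the 8 largest and 8 smallest changes; the 4 most abundant per kilobase; members below 1 CPM; the stalk and the S18 paralogues; up to 3 called genes per direction in each other list; both mitochondrial ribosomal RNAs. Members outside it (such as Mrpl44, Mrpl45, Mrpl58, Mrps36, Mrps10, Mrps7, and those named by count or as divergent pairs) were chosen after their values were seen. Sample numbers of the groups did not pair the samples (correlations of deviations 0.04, -0.08 and -0.03).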

Additional observations from a re-analysis of the deposited data

How the results depend on the processing

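The number of genes called over all genes was 5501 with the replicate block and offsets together, against 8579, and 5071 to 10318 when 1 library was left out. Counts of members called ran from 20 to 59 when 1 library was left out, with 19 to 56 higher and 0 to 5 lower, 14 to 37 among Mrpl genes, 4 to 22 among Mrps genes, and a median log2 fold change of 0.38 to 0.78. In the subgroups these ranges were 9 to 25 (large subunit, bacterial homologue), 5 to 14 (large subunit, mitochondrial), 3 to 14 and 1 to 5 (the same in the small subunit), and 20 to 39 in the other lists of mitochondrial gene expression. These fits also have fewer samples. Members called higher were 26 with offsets from the median transcript length and 24 with offsets without control 2, where the median was 0.084. Members called lower were 1 with upper quartile scaling, 1 without a filter, 1 with the replicate block, 6 with median transcript offsets and 7 with offsets without control 2. Called members of a subgroup were 11 (large subunit, bacterial homologue) with median transcript offsets, 7 (large subunit, mitochondrial) with offsets without control 2 and 5 (small subunit, mitochondrial) with upper quartile scaling. Upper quartile scaling moved the median of all genes to 0.19 and raised the share of calls that were higher (48.4% to 60.5%); the members' median became 0.73, with 51 higher. The cause was not tested.

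The sample numbers are shared by both groups but did not pair the samples; with the replicate block 7397 genes and 41 members were called, 40 of them higher.

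Over 882 values of single named genes under the alternatives, 709 kept direction and side of the threshold, 130 lost the threshold, 16 gained it and 27 turned. With the offsets the turned values were -0.18 for Mrpl10, -0.19 for Mrps21, -0.15 for mt-Atp6, -0.47 for mt-Rnr1 and -0.46 for mt-Rnr2. With the replicate block and offsets they were -0.18, -0.18, -0.18, -0.45 and -0.44 in that order. With offsets from the median transcript they were -0.29, -0.36, -0.18, -0.48 and -0.39, beside -0.047 for Guf1, -0.27 for Mrps18b and -0.30 for Tfam. With offsets and without control 2 they were -0.25, -0.28, -0.27, -0.68 and -0.65, beside -0.025 for Mrpl18, -0.019 for Mrpl34 and -0.028 for Mrpl49. With 1 library left out Mrpl10 ran from -0.053, without control 2, to 0.24.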
